A study of Homo sapiens with 3 samples.

Results

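MDM4 and MDM2 were examined by the peaks that 2 GoldCLIP-seq lists placed within their bounds. Members were the peaks whose summit lay between the annotated ends of either gene in the RefSeq gene table of GRCh38. These were 106 of 408413 deposited peaks, 16 of the 154000 listed for RPL22-HaloTag and 90 of the 254413 listed for RPL22L1-HaloTag. The cells were HCT116, an established human colorectal carcinoma line, carrying RPL22-HaloTag or RPL22L1-HaloTag. HaloTag is a protein tag that binds covalently to beads, and GoldCLIP uses this to isolate RNA crosslinked to the fused protein under denaturing washes. A library of cells with HaloTag alone belongs to the series and was not analysed here, so no background from it stands beside the values. Each group was 1 library. No comparison therefore has a replicate check or a p-value, and the values describe these 2 libraries.

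MDM2 is a ubiquitin ligase that marks proteins for degradation. MDM4 is its paralog and pairs with it. Several proteins of the ribosome bind MDM2 when ribosome assembly is disturbed, and the level of full-length MDM4 is known to depend on the splicing of an internal exon. RPL22 belongs to the large ribosomal subunit, RPL22L1 is its paralog, and both bind RNA outside the ribosome as well. The question was where on these 2 transcripts each protein had peaks, and whether at the same places.

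The 2 lists are called the RPL22 list and the RPL22L1 list. A score is the authors' own whole-number value for a peak, used here to rank peaks within a list. Rank 1 is the highest score, and the top percent is the rank divided by the length of the list. Score scales were not compared between lists. A peak was called flat when it was 30 bases wide with its summit at offset 15, and shaped otherwise. Of all RPL22 peaks 64.9% were flat, and of all RPL22L1 peaks 77.9%. The number of reads behind the lists is unknown, and the lists carry no strand. Exon positions were not used here, so a position is given as the distance from the annotated start of the gene. Both genes lie on the plus strand, MDM4 on chromosome 1 (204516406 to 204558120, 41.7 kb) and MDM2 on chromosome 12 (68808172 to 68850686, 42.5 kb).

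The sequences around the start sites are shown first, because the first RPL22L1 summit of either gene lay at most 100 bases after one of them, beyond the bases printed. Each runs from 250 bases before a RefSeq start site to 30 bases after it, on the plus strand of GRCh38.p14, with the 30 transcribed bases in capitals. For MDM4 it is chr1:204516156-204516435. For MDM2 it is the inner of 2 groups of start sites, chr12:68808767-68809046.
MDM4: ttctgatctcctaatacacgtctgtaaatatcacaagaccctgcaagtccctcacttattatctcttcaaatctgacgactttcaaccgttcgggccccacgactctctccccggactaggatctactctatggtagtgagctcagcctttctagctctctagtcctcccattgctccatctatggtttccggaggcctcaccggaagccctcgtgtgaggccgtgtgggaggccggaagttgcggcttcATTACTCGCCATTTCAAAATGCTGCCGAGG
MDM2 inner start: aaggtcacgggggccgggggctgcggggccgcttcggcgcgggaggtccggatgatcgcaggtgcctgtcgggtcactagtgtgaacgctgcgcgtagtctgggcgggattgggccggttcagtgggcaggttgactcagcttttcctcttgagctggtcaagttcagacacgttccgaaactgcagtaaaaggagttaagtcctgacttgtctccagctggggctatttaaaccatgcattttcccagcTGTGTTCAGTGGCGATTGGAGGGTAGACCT

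No peak of either list overlapped the 300-base windows of the promoter table at these start sites. The first RPL22L1 summit of MDM4 lay 78 bases after its start (204516469 to 204516498, flat, score 258, rank 39876). In MDM2 the first RPL22L1 summit lay 72 bases after the inner start at 68809017 (68809074 to 68809103, flat, score 101, rank 148226). It was 917 bases after the outer start, and 0 summits of either list lay in the 845 bases between the 2 starts. Across protein-coding genes with a listed start site, 5.67% had an RPL22L1 summit at most 100 bases after one. The RPL22 list began later, with a first summit 756 bases into MDM4 (flat, score 21, rank 100612) and 8672 bases into MDM2. It also held fewer summits, 9 and 7 in MDM4 and MDM2 against 40 and 50. Whether the later start goes beyond this difference in number was not tested.

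In MDM4 the strongest RPL22 peaks stood as a close pair near the middle of the gene. The list held 9 summits in the whole gene, 8 of them shaped. The highest peak (204537631 to 204537676, 46 bases wide) had a score of 1046 and rank 670, the top 0.435% of the list. The second (204537524 to 204537568, 45 bases wide) had a score of 354 and rank 2715. Their summits lay 21251 and 21144 bases from the start of the gene and 107 bases from each other, with 62 bases between the peaks. These 2 peaks stood well above the other 7 of the gene, whose scores ran from 21 to 161. The third was a peak of 64 bases (204542897 to 204542960, score 161, rank 10262), and the fourth had its summit 617 bases beyond that of the highest (204538255 to 204538287, score 122, rank 15549). Shaped peaks on the 5′ side of the pair included those at 204530747 to 204530777 (score 121) and 204536452 to 204536481 (score 51).

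**Figure D1:**
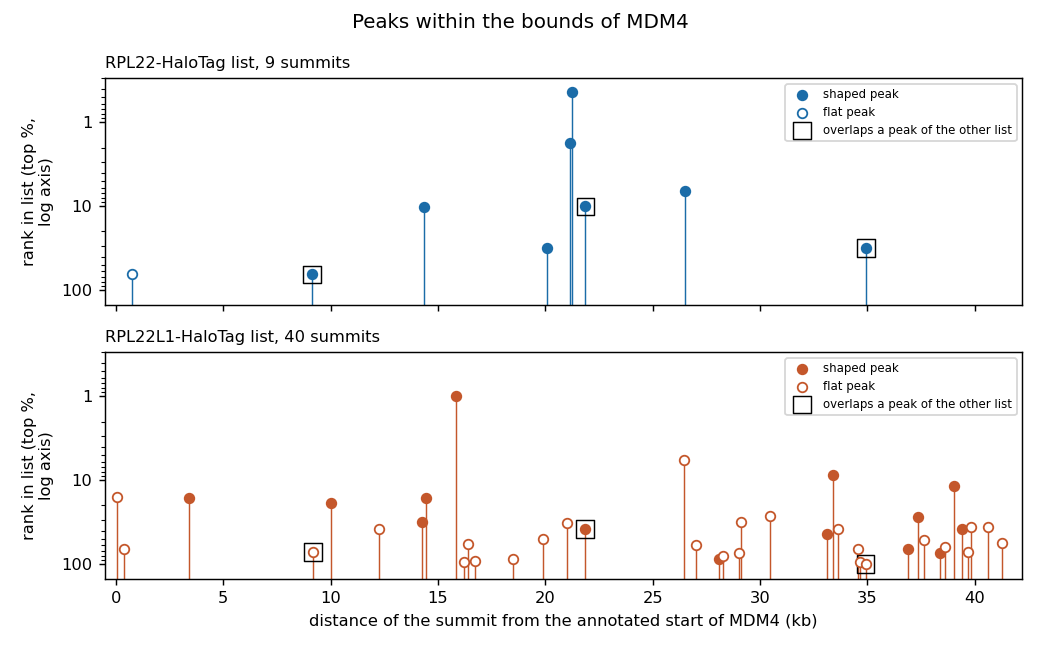
Peaks of MDM4 by distance of the summit from the annotated gene start (kb) and by rank within the list (top percent, log axis), RPL22 list above and RPL22L1 list below, 1 library each. Filled points are shaped peaks, open points flat peaks, and squares mark overlap with a peak of the other list. The 2 highest RPL22 peaks stand 107 bases apart near 21 kb, and 3 peaks of each list carry a square.

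Neither peak of the pair overlapped an RPL22L1 peak. The stretch without an RPL22L1 peak around them ran over 798 bases, from 204537450 to 204538247. On its left was a flat RPL22L1 peak with a score of 172, and on its right a shaped one with a score of 153 that overlapped the RPL22 peak at 204538255. Non-overlap was uncommon at the rank of the highest peak, though usual in the whole RPL22 list, where 17.4% of peaks overlapped. Of the 676 RPL22 peaks scoring as high as the MDM4 peak or higher, 102 or 15.1% had no overlap, and 80 or 11.8% were at least 181 bases from the nearest RPL22L1 peak, as this one was. Among protein-coding genes, 313 held a higher-ranked RPL22 peak than MDM4, and in 60 of them that highest peak also lacked RPL22L1 overlap. Peaks in small RNA genes, some of which ranked high in both lists, were not set apart in these counts.

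Overlap in MDM4 was found at 3 of the 9 RPL22 peaks, against 17.4% of the whole RPL22 list and 39.2% of its shaped peaks. With 3 of 9, the share was 33.3% (exact Clopper-Pearson 95% interval 7.49 to 70.1%), which spans both levels. All 3 were shaped, so that 3 of 8 shaped RPL22 peaks overlapped, or 37.5% (8.52 to 75.5%), near the 39.2% of the list. The share of all peaks depended on the setting. It was 11.1% in lists of equal size and 11.1% when at least 50% of both peaks had to be shared. With flat peaks left out of both lists it was 12.5%. One overlap joined the shaped peaks at 204538255, with 33 shared bases and summits 17 bases apart. The others were partial and low in rank, with 9 bases shared near 204525565 and 11 near 204551326. The RPL22L1 peaks there were flat, with scores of 74 and 13. All 9 RPL22 peaks of MDM4 had an RPL22L1 peak at most 353 bases away, where 42.2% of all RPL22 peaks had one within 400 bases. The third-highest RPL22 peak, for example, missed the second-highest RPL22L1 peak of the gene by 3 bases (204542864 to 204542893, flat, score 395, rank 14500). MDM4 held more RPL22L1 summits per kb than 92.6% of protein-coding genes, and the 42.2% does not allow for this. The median distance was 21 bases to any RPL22L1 peak and 818 bases to a shaped one.

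The RPL22L1 list held 40 summits in MDM4, spread along the gene and denser towards its 3′ end. Of these, 26 were flat, or 65.0% (48.3 to 79.4%). The highest was a shaped peak of 30 bases (204532213 to 204532242, score 936, rank 2501, top 0.983%), 15819 bases into the gene. Its nearest RPL22 peak was 1435 bases away. A gap of this size or more was found for 25.4% of RPL22L1 peaks ranked as high. The next shaped peaks lay at 204549774 to 204549803 (score 324, rank 22198) and 204555415 to 204555452 (score 289, rank 29642), 1522 and 4059 bases from the nearest RPL22 peak. In the top 10% of the list were 3 of the 40 peaks, and 6 of the 50 in MDM2. Scores of the 40 peaks ranged from 13 to 936 with a median of 129.5, close to the median of 124 of the whole list. Of the 40, 3 overlapped an RPL22 peak, or 7.5% (1.57 to 20.4%), and the whole list gave 10.6%.

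In MDM2 the 2 highest RPL22 peaks were again a close pair, but here an RPL22L1 peak lay across both. The higher (68816903 to 68816940, 38 bases) had a score of 303 and rank 3517, the top 2.28% of the list. The lower (68816818 to 68816868, 51 bases) had a score of 256 and rank 4583. Their summits were 67 bases apart with 34 bases between the peaks, 8739 and 8672 bases from the outer start. An RPL22L1 peak of 112 bases (68816825 to 68816936, score 212, rank 57955) shared 34 bases with the first and 44 with the second. Its summit was 3 bases from that of the higher RPL22 peak. In the RPL22L1 list this site was not prominent, at the top 22.8%.

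**Figure D2:**
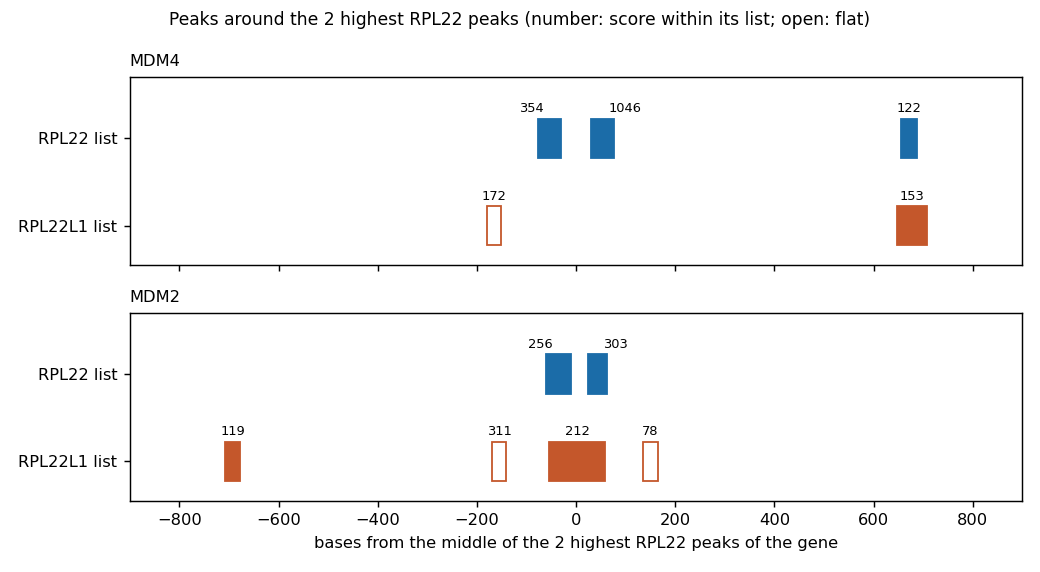
Peaks of both lists within 900 bases of the middle of the 2 highest RPL22 peaks, for MDM4 (above) and MDM2 (below). Bars span each peak from start to end, open bars are flat peaks, and the number is the score within its own list. In MDM4 no RPL22L1 bar lies below the pair scoring 354 and 1046, while in MDM2 an RPL22L1 bar scoring 212 lies below both.

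Such pairs were rare among other genes. Of 4153 protein-coding genes with at least 5 shaped RPL22 peaks, 69 or 1.66% had their 2 highest shaped peaks within 150 bases, summit to summit, and the median distance was 11377 bases. MDM4 and MDM2 are both among the 69. In 24 of these genes neither peak of the pair overlapped an RPL22L1 peak, as in MDM4, and in 19 both did, as in MDM2. By the rank of its highest peak MDM4 was in place 2 of the 24. The pairs were noticed in the values of both genes before the distance was set, so the share describes how common they are and tests nothing.

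The remaining 5 RPL22 peaks of MDM2 were lower. Shaped peaks lay at 68843920 to 68843951 (score 85, rank 26502), 68835933 to 68835965 (score 65, rank 36067) and 68819151 to 68819180 (score 56, rank 46573). Flat ones lay at 68849053 to 68849082 (score 33) and 68818644 to 68818673 (score 22). Those scoring 85 and 65 overlapped RPL22L1 peaks, so that 4 of 7 did, or 57.1% (18.4 to 90.1%), against 17.4% of the whole RPL22 list. All 4 were shaped, so that 4 of 5 shaped RPL22 peaks did, or 80% (28.4 to 99.5%). This interval spans the 39.2% of shaped RPL22 peaks in the whole list. Of the 4, the 2 of the pair overlapped one and the same RPL22L1 peak. MDM2 held more RPL22L1 summits per kb than 95.5% of protein-coding genes, and the levels of the whole list do not allow for this. No RPL22 peak was listed over 16.8 of the 42.5 kb of the gene, from 68819181 to 68835932, where the RPL22L1 list had 17 of its 50 summits. This was the longest such stretch between the 7 RPL22 peaks, picked after the values were seen. The RPL22L1 summits were not concentrated in it.

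MDM2 held 50 RPL22L1 summits against 40 in MDM4, and more of its peaks were wide. The order of the numbers turned to 22 against 24 in lists of equal size and to 19 against 20 once peaks under the median score were dropped. Of the 50 in MDM2, 24 were shaped and 26 flat, or 52.0% flat (37.4 to 66.3%). The highest (68809258 to 68809312, 55 bases, score 743, rank 4028, top 1.58%) lay 1111 bases from the outer start. Its summit was 194 bases beyond the first RPL22L1 summit, itself 72 bases after the inner start. The nearest RPL22 peak to this highest peak was 5725 bases away, before the gene. Of RPL22L1 peaks ranked as high, 10.3% were this far or farther from one. Peaks of at least 100 bases numbered 5 of 50, against 1 of 40 in MDM4 and 1.35% of the whole list. Flat peaks are 30 bases wide by definition, so only shaped peaks could be this wide. Among shaped peaks the numbers were 5 of 24 in MDM2, 1 of 14 in MDM4 and 3424 of 56187 in the whole list. The 5 in MDM2 included 68836711 to 68836819 (score 465, rank 10349), 68835818 to 68835987 (score 433, rank 11770) and 68828839 to 68828956 (score 350, rank 18949). The peak scoring 433 was the widest of either gene, at 170 bases, and held the RPL22 peak at 68835933 within it. The other 2 of these named peaks were 745 and 6976 bases from an RPL22 peak. Of the 50 RPL22L1 peaks 3 overlapped an RPL22 peak, or 6.0% (1.25 to 16.5%), where the whole list gave 10.6%. All 3 were shaped, so that 3 of 24 shaped peaks did, or 12.5% (2.66 to 32.4%), against 26.0% of shaped peaks in the whole list.

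**Figure D3:**
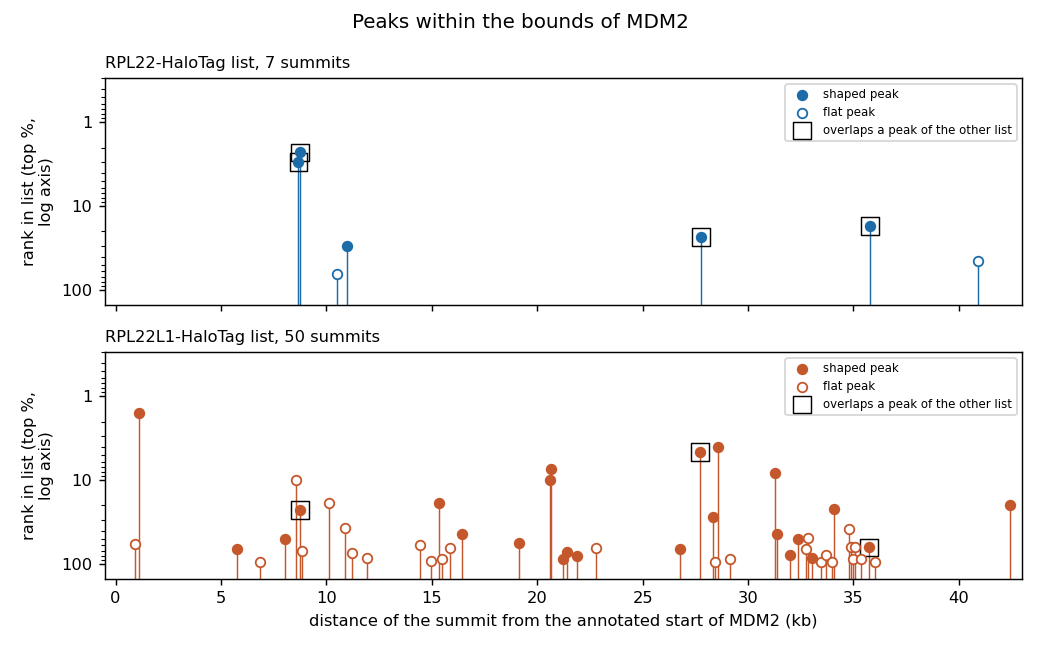
Peaks of MDM2 by distance of the summit from the annotated gene start (kb) and by rank within the list (top percent, log axis), RPL22 list above and RPL22L1 list below, 1 library each. Filled points are shaped peaks, open points flat peaks, and squares mark overlap with a peak of the other list. The longest stretch between RPL22 peaks spans 16.8 of the 42.5 kb of the gene, where the RPL22L1 panel has 17 of its 50 summits.

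The 3′ end of MDM2 overlaps another gene. CPM, which encodes carboxypeptidase M on the minus strand, shares 8490 bases with it (68842197 to 68850686). Of the MDM2 summits, 2 of 7 RPL22 and 9 of 50 RPL22L1 lay in that stretch, and without strand they cannot be assigned to either gene. Over the whole of CPM, 121 kb, the RPL22 list had 9 summits and the RPL22L1 list 15. The last 6381 bases before the final RPL22L1 peak of MDM2, from 68844196 to 68850576, held no RPL22L1 peak and 1 flat RPL22 peak. Within MDM4 lies the pseudogene LOC100291628, which held 1 flat RPL22L1 summit (score 152) and no RPL22 summit.

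Both genes held many more RPL22L1 than RPL22 summits, beyond the difference in list length. The ratio was 4.44 in MDM4 (40 to 9) and 7.14 in MDM2 (50 to 7), and 1.65 for the whole lists. Over 8907 protein-coding genes whose summits in the 2 lists came to 10 or more the median ratio was 1.60, with quartiles of 1.1 and 2.38. A ratio of 4 or more was found in 8.20% of these genes and one of 7 or more in 2.37%. Counted by shaped peaks, the ratio of MDM4 was 1.75 (14 to 8), near the upper quartile of 1.73. Of 3727 genes with 10 or more shaped summits, 52.6% had more in the RPL22L1 list. MDM2 had a ratio of 4.8 (24 to 5), and 4.45% of those genes reached 4. In lists of equal size, which keep the RPL22L1 peaks scoring above 98, the ratios were 2.67 (24 to 9) and 3.14 (22 to 7). Outside the stretch shared with CPM the MDM2 ratio was 8.2 (41 to 5).

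Per length, the RPL22 list had 0.216 summits per kb in MDM4 and 0.165 in MDM2, above 67.5% and 59.99% of 20046 protein-coding genes. By shaped summits it was above 84.4% and 75.2%. The median of the genes with a summit was 0.205. In the 10 kb before and after MDM4 it had 0.3 and 0.1 summits per kb, and in those around MDM2 0.1 and 0.4. For either gene the RPL22 value by all summits lay between those of its flanks, which held 1 to 4 summits each. By shaped summits MDM4 (0.192 per kb) was between its flanks (0.2 and 0.1), and MDM2 (0.118) was above both of its own (0 and 0.1). The flank before MDM4 holds the tRNA gene TRK-TTT3-2, with peaks of rank 99 and 147 in the RPL22 and the RPL22L1 list. The RPL22L1 list had 0.959 summits per kb in MDM4 and 1.18 in MDM2, above 92.6% and 95.5% of the same genes. Its flanks had 0.3 on both sides of MDM4, and 0 and 0.3 around MDM2. The nearest protein-coding neighbours held fewer RPL22L1 summits per kb, with 0.251 in LOC124904584, 0.0146 in LRRN2 and 0.227 in SLC35E3. An exception was CPSF6, a factor of mRNA 3′ end processing 389 kb beyond MDM2, with 1.61 (56 summits).

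The summits were also placed by segment, with each gene cut into 3 equal segments from 5′ to 3′. In MDM4 the RPL22 numbers were 2, 6 and 1, and the RPL22L1 numbers 6, 12 and 22. The middle segment thus held 66.7% (29.9 to 92.5%) of the RPL22 summits and 12 of the 40 RPL22L1 summits (16.6 to 46.5%). Across protein-coding genes it held 29.0% in either list. In MDM2 the RPL22 numbers were 4, 1 and 2, and the RPL22L1 numbers 12, 16 and 22. For both genes the 3′ segment had the most RPL22L1 summits, 55.0% (38.5 to 70.7%) in MDM4 and 44.0% (29.99 to 58.7%) in MDM2, and all genes gave 41.9%. For the RPL22 share of the middle segment of MDM4, the level of all genes lay just below the interval (29.0% against 29.9%). For the other shares with an interval here, it lay within the interval. These intervals treat peaks as independent, but 2 of the 6 RPL22 summits in that segment were the close pair. The interval therefore decides nothing about this segment.

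**Figure D4:**
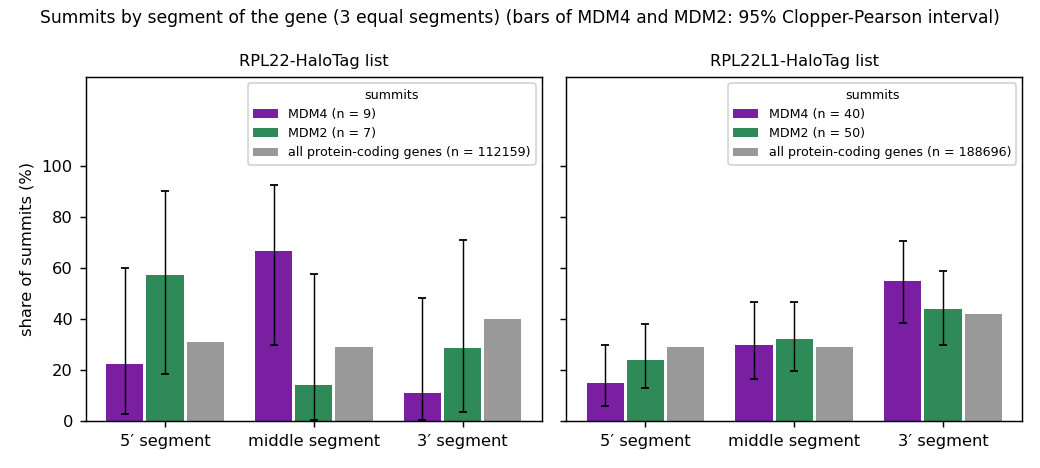
Share of summits (percent) in the 5′, middle and 3′ segment of MDM4, MDM2 and all protein-coding genes, RPL22 list on the left and RPL22L1 list on the right. Error bars show the exact 95% interval (Clopper-Pearson) for counting error. The middle segment of MDM4 has 66.7% of its RPL22 summits, which include the close pair, and the 3′ segment has the most RPL22L1 summits in both genes.

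The surrounding pathway was described with a list of 60 names, which held partners and regulators of MDM2 and MDM4, ribosomal proteins known to bind MDM2, and target genes of the pathway. Of these 59 matched a protein-coding gene, and 57 remained beside MDM4 and MDM2. The RPL22 list had a summit in 51 of the 57, which is 89.5% (78.5 to 96.04%). The RPL22L1 list had one in 56, which is 98.2% (90.6 to 99.96%). All protein-coding genes gave 68.3% and 69.8%. Expression of the genes in this line was not measured here. The median number of summits in the 57 was 5 and 10, against 3 and 4 over all protein-coding genes. The RPL22L1 number was higher in 49 of the 57 genes, equal in 8 and lower in 0. Of the 56 with a summit in either list it was higher in 87.5% (75.9 to 94.8%), and of all 15025 such protein-coding genes in 65.4%. Among genes with 10 or more summits in all, it was higher in 38 of 41 of the list and in 76.8% of protein-coding genes. The RPL22L1 list is the longer one, so a higher number there was the usual case. CDKN1A, which encodes the cell-cycle inhibitor p21, had equal numbers, with 6 and 6.

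MDM4 stood in place 4 of the 59 genes by its highest RPL22 peak. The genes ahead of it were NCL (rank 18), RPL5 (rank 51) and RPL37 (rank 81), and their highest peaks lay in snoRNA genes within their bounds. NCL encodes nucleolin, and RPL5 and RPL37 encode ribosomal proteins that bind MDM2. Thus MDM4 held the highest RPL22 peak of the list that lay outside an annotated small RNA. It was followed by YWHAG (rank 714), a 14-3-3 protein known to bind MDM4, whose peak overlapped an RPL22L1 peak. By its highest RPL22 peak MDM2 was in place 21. In the RPL22L1 list the highest peaks were those of RPS3 (rank 49), NCL (rank 54), RPL37 (rank 55), RPL5 (rank 73) and RPS25 (rank 532), the first 4 of them in snoRNA genes. There MDM4 was in place 17 and MDM2 in place 24. By number of RPL22L1 summits MDM2 was in place 8 and MDM4 in place 10, and by summits per kb in places 16 and 20. YWHAZ, another 14-3-3 gene, with 9 and 56 summits, and CSNK1A1, a kinase gene whose product acts with MDM4, with 16 and 65, had ratios of 6.22 and 4.06. NPM1, the gene of nucleophosmin, had 0 RPL22 and 32 RPL22L1 summits. These last 3 were picked for their ratios after the values were seen. The ratios of YWHAZ and CSNK1A1 were not the largest of the list. RPL26 and RPS27A, for example, each had 1 RPL22 and 9 RPL22L1 summits, a ratio of 9.

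**Figure D5:**
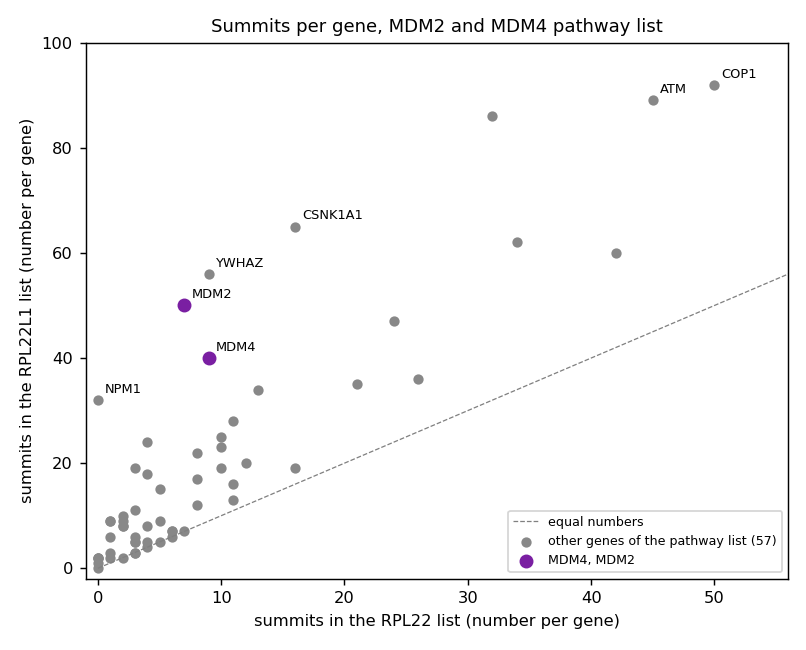
Number of summits per gene in the RPL22 list (x axis) and the RPL22L1 list (y axis) for the genes of the MDM2 and MDM4 pathway list, with MDM4 and MDM2 as large points and the dashed line at equal numbers. Each point is 1 gene and each list 1 library. MDM4 (9 and 40) and MDM2 (7 and 50) lie above the line.

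The genes most like MDM4 and MDM2 were found by the numbers of flat and shaped summits in both lists, as the Euclidean distance over these 4 numbers on the log2(number + 1) scale, among protein-coding genes within 1.5-fold of the length. For MDM4, with 4087 genes compared, they were DMTF1 (distance 0.223), PSMD12 (0.277) and TXNL1 (0.290). DMTF1 had 8 RPL22 and 39 RPL22L1 summits, and its highest RPL22 peak had rank 12866, far below the rank of 670 in MDM4. The highest RPL22 peaks of PSMD12 and TXNL1 had ranks 3117 and 990. For MDM2, with 4056 genes compared, they were EDRF1 (0.340), CPSF6 (0.382) and DHX15 (0.457). Their RPL22 numbers were 8, 8 and 9 and their RPL22L1 numbers 48, 56 and 48. Their highest RPL22 peaks had ranks 26739, 2417 and 2447, against 3517 in MDM2, so CPSF6 and DHX15 held higher ones. The likeness rests on 2 libraries.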

How the data were processed

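The genotype labels gave the groups, and 1 peak list for RPL22-HaloTag and 1 for RPL22L1-HaloTag were analysed. The submitters' processing notes name cutadapt 4.8, STAR 2.7.10a, UMI-tools 1.1.5, MACS3 3.0.0a6 and hg38, without roles. The control and thresholds of peak calling are not given in the sources used here. The deposited score is the authors' whole-number value per peak, on an unstated scale, with a lowest value of 13 in both lists. Further deposited columns were at 0 throughout and were not used. The number of reads is unknown, so intervals (exact Clopper-Pearson, 95%) cover counting error over peaks only.

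A summit is the peak start plus the deposited offset, counted from 1. Genes, start sites and promoter sequences were those of RefSeq GRCh38.p14, and both members matched the promoter table. Overlap meant at least 1 shared base, and distances are bases between peak edges unless summits are named. Rank ties took the better rank. Summits were counted in every gene whose bounds held them, and the pathway list and the measure of likeness followed written rules. Genes named were the members, the genes that overlap or neighbour them, the 5 genes of the pathway list with the highest peaks in each list, and the 3 most like each member. CDKN1A, 3 genes with large ratios, RPL26 and RPS27A were added after their values were seen. The values of 1 gene of the pathway list are not reported here. The members and lists were chosen with earlier results of these data known. No test between groups was run. Computations used Python 3.11.15, scipy 1.17.1, matplotlib 3.10.9, pandas 2.3.3 and numpy 2.4.6. On simulated data 400 of 400 planted overlaps were found, and overlaps, distances and gene counts differed from a direct search in 0 cases.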

Additional observations from a re-analysis of the deposited data

How the results depend on the processing

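Of 76 alternative values, 62 stayed within 1.5-fold or, for shares, within their interval, and 14 moved. Many could hardly move, so the 62 do not measure how stable the results are. The intervals of the shares are wide, and the RPL22 overlap share of MDM4 counted as unmoved at 11.1% against 33.3%. High percentages of genes cannot rise 1.5-fold, and lists of equal size shorten only the RPL22L1 list. The number of RPL22L1 summits fell from 40 in MDM4 and 50 in MDM2 to 14 and 24 without flat peaks, to 20 and 19 when peaks below the median score of the list were dropped, and to 24 and 22 in lists of equal size (149971 RPL22L1 peaks, scores above 98). In the last 2 settings MDM4 held more than MDM2, the reverse of the whole lists. By construction these settings leave fewer peaks. With overlap of at least 50% of both peaks the overlapping share in MDM2 became 0% in both lists, since the RPL22L1 peaks there are much wider. The share in the RPL22 list of MDM4 ranged from 11.1 to 55.6% over the alternatives, within its interval. The median distance to the other list, 21 bases for the RPL22 peaks of MDM4 and 0 for those of MDM2, was 62 and 74 between summits, and 818 in MDM4 to the nearest shaped peak. The flat share at or above the median score was 0% of RPL22 and 45% of RPL22L1 peaks in MDM4, and 26.3% of RPL22L1 peaks in MDM2. Apart from settings that remove peaks, the cause was not tested. Chosen after seeing the data, other limits for close pairs gave 3.68% (300 bases), 2.84% (2 shaped peaks, 150 bases) and 5.97% (2 shaped peaks, 300 bases) of genes. No paired analysis was possible because each group is 1 library.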
